A study of Mus musculus with 6 samples.

Results

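The comparison described here is that of Clock mutant liver at circadian time 14 (CT14, early subjective night) with Clock mutant liver at circadian time 02 (CT02, early subjective day). Its members are the 2 arrays whose titles name the Clock mutant, of 6 arrays in the series, each read over the 10855 of 12488 probe sets that carry a single gene symbol. These stood for 8251 genes, of which 4844 were bright enough to be kept. The other 4 arrays, used for scale and for comparison, were from wild-type mice of the C57BL/6 background and from Cry-deficient mice, at the same 2 circadian times. All animals were males between 8 and 10 weeks of age, and each genotype and time was represented by 1 array of total liver RNA. The strain background of the Clock mutant, the Clock allele it carries, the lighting before collection and the number of livers behind an array were not stated in the labels. The description of 1 of the Cry-deficient arrays names a double knockout of Cry1 and Cry2.

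In the mammalian clock, CLOCK and BMAL1 (the product of Arntl) bind E-box sequences as a pair and activate the Per and Cry genes, whose proteins feed back on that pair. The same pair activates Nr1d1, Dbp, Tef and other output genes, through which liver metabolism is given a daily rhythm. In the liver, feeding, insulin, growth hormone and adrenal glucocorticoids carry daily signals of their own, and the genes of lipid synthesis, bile acid synthesis and metal handling are among those known to follow them.

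The deposited intensities of the CT02 array were low, with a mean of 1637 against 2182 on the CT14 array and 2195 to 2486 on the 4 other arrays, so each array was rescaled before any ratio was taken. The log2 offset removed was -0.43 for CT02 and 0.07 for CT14. Levels below are in scaled units, and a level under 606 scaled units, the pooled median of all 6 arrays, was read as being at the floor. The highest deposited intensity was 26665 on the CT02 array and 32659 to 33426 on the 5 others. After scaling, the kept genes were split by mean level into 10 equal groups, and the brightest group had a median log2 ratio of CT14 over CT02 of -0.29, while the medians of the others lay between -0.02 and 0.10. For Actb, the 3' control probe set read 2.68 times its 5' partner at CT02 and 1.15 times at CT14. On the 4 other arrays this Actb ratio was 0.84 to 1.70, so the Clock mutant CT02 array had the highest. The same ratio was 0.56 and 0.59 for Gapdh (0.70 to 2.37 on the 4 others), and 17.7 and 6.57 for Pcx. For Pcx it was also lower at CT14 in wild type (19.7 and 3.96) and in the Cry-deficient pair (25.3 and 7.14). The 18S ribosomal RNA control, read by its 3' probe set, stood at 15214 and 15787 on the Clock mutant arrays against 1395 to 8625 on the 4 others. Its 5' probe set read 5960 and 17721 at CT02 and CT14, against 494 to 2438 on the 4 others. Its middle probe set read 3394 and 15219, against 124 to 5031, so both were higher at CT14 than at CT02. The part of these array features in the ratios below was not tested. With 1 array per group no ratio had a replicate check, no test was made, and sizes alone are given.

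Hepatocyte markers were mostly bright on both arrays, but 1 was at the floor at CT14, so the size of its ratio is a lower bound. All 11 hepatocyte markers on the array were kept, with Alb (albumin) at 12219 and 6636 and Ahsg (fetuin A) at 21912 and 10318 scaled units at CT02 and CT14. Each of the 11 was lower at CT14, with a median log2 ratio of -0.48 and 1, Ahsg, past 2-fold, and after a correction that follows the level of a gene (lowess) the median was -0.17 and Ahsg was under 2-fold (-0.76). Less RNA per cell and fewer cells of a type cannot be told apart in whole tissue. The 4 genes proposed as markers of the comparison, Mt2, Socs2, Fasn and Bcl6, were each past 2-fold and are described below with their families.

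Of the 4844 genes kept, 375 (7.74%) were at least 2-fold apart between CT02 and CT14 in the Clock mutant. Of these, 209 (4.31%) were higher and 166 (3.43%) were lower at CT14. For 79 of the higher and 46 of the lower genes 1 of the arrays was at the floor, so that their ratio is a lower bound, written below as "at least". Past 4-fold were 17 higher and 12 lower genes. Over all kept genes the median log2 ratio was 0.00, the quartiles were -0.30 and 0.32, and 2371 genes were higher against 2351 lower, the values against which the lists below are to be read. The same contrast put 221 genes (4.56%) past 2-fold on the wild-type arrays and 269 (5.55%) on the Cry-deficient arrays. Of the 209 genes higher at CT14 in the Clock mutant, 14 were past 2-fold the same way in wild type, 8 were past it the opposite way and 187 were under 2-fold. Of the 166 lower genes, 14 were past 2-fold the same way, 14 the opposite way and 138 were under it.

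**Figure D1:**
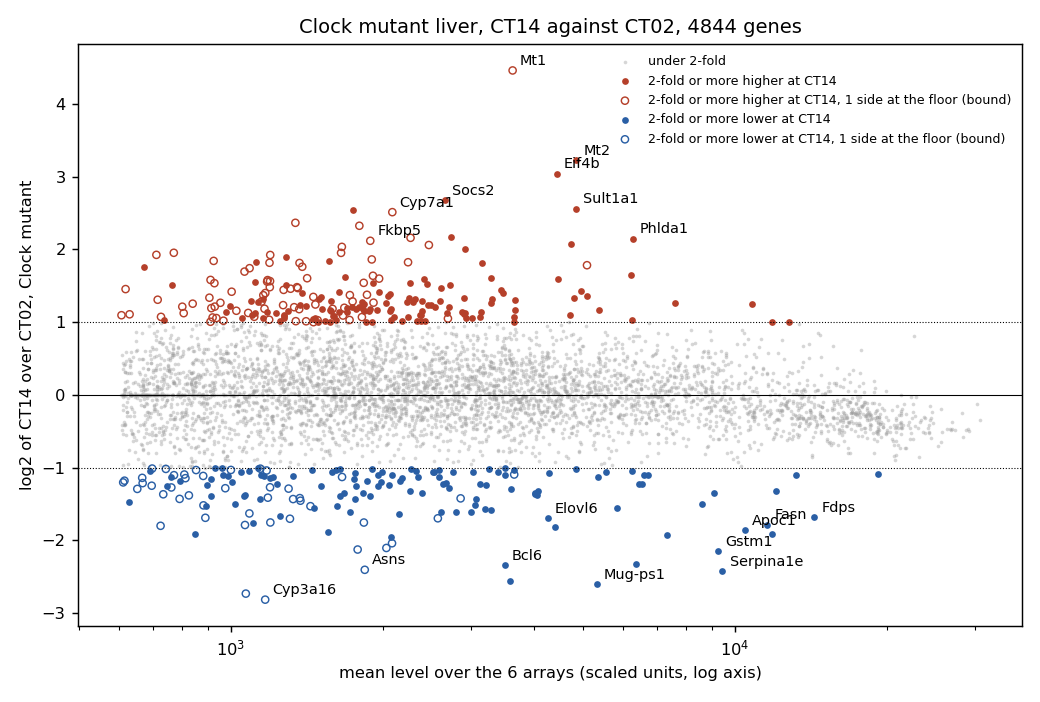
Each point is 1 of the 4844 genes kept, with its mean level over the 6 arrays (scaled units, log axis) against its log2 ratio of CT14 over CT02 in the Clock mutant. Red and blue points are the 209 genes at least 2-fold higher and the 166 at least 2-fold lower, open circles are lower bounds with 1 array at the floor, and the cloud of the brightest genes lies below 0, as does their median of -0.29.

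The largest difference of the comparison was in the metallothioneins, small cysteine-rich proteins that bind zinc and copper and whose genes are activated by metal-responsive transcription factor 1 (MTF1) and by glucocorticoids. Metal response elements, the sites bound by MTF1, were searched for with the pattern TGCNCNC, in which N stands for any base. Both strands of the 250 bases before the RefSeq start were searched. Matches are shown in capitals because the metallothionein pair leads the comparison, and a match to so loose a pattern need not be such an element. The pattern was present in 44.4% of the 32851 promoters of the same length. Mt2 had 5 matches, as many as or more than which were held by 113 promoters (0.344%), and Mt1 had 1. The Mt2 window is chr8:94172368-94172617 and the Mt1 window chr8:94178839-94179088 (GRCm38.p6, plus strand, from RefSeq), and neither window had a match that overlapped another motif searched. The counts hold for the window of the RefSeq start alone.
Mt2: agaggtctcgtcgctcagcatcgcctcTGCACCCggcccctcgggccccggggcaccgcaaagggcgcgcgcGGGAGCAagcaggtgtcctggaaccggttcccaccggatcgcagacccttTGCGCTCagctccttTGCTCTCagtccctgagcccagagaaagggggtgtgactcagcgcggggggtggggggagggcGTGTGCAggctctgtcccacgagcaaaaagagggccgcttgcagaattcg
Mt1: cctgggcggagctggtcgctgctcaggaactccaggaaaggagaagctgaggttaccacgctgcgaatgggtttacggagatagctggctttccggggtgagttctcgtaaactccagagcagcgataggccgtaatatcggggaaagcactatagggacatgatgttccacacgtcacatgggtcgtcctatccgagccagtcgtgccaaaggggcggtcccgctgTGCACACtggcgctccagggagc

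Mt2 stood at 1558 at CT02 and 14582 at CT14 in the Clock mutant. The wild-type pair read 1261 and 1471, and the Cry-deficient pair 9174 and 980. The Clock mutant CT14 array was thus the highest of the 6 and its CT02 array lay among the others. The log2 ratio was 3.23 (9.36-fold). Mt1 read -1044 and 13356 in the Clock mutant, with -696 and 1136 for the wild-type pair and 9698 and -712 for the Cry-deficient pair. It was at least 22.0-fold higher at CT14 in the Clock mutant, where the CT02 array was at the floor, and the Cry-deficient pair ran the other way for both genes. Other genes tied to zinc and oxidative stress were under 2-fold. Slc30a1, a zinc exporter and MTF1 target, stood at 1648 and 1847, a log2 ratio of 0.16. Gclc, which makes the first intermediate of glutathione synthesis, stood at 11396 and 10138 (-0.17). Mtf1 itself was at the floor on both arrays and was not kept. Over the 4 kept genes of the list the median was 1.70, with 2 past 2-fold, both metallothioneins.

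Glucocorticoid response genes, a list that includes both metallothioneins, had a median of 0.51 over 14 genes kept, 9 higher and 5 lower, with 5 past 2-fold upwards and 1 downwards. In wild type their median was 0.08. Fkbp5, a co-chaperone of the glucocorticoid receptor, stood at 230 and 2635 in the Clock mutant, with 382 and 4818 for the wild-type pair and 1860 and 1421 for the Cry-deficient pair. It was at least 4.35-fold higher at CT14 in the Clock mutant, with the Clock mutant and wild-type pairs alike in direction. Zbtb16 (PLZF) and Nampt, the rate-limiting enzyme of NAD salvage, were at the floor at CT02 and at least 2.60-fold and 2.31-fold higher at CT14, Zbtb16 by the brighter of 2 probe sets (0.69 averaged over both). Tsc22d3 (GILZ) had a log2 ratio of 0.89. Pck1, Tat and Pdk4, enzymes of the same list, were lower at CT14, unlike Nampt. Pck1, which commits carbon to gluconeogenesis, stood at 13613 and 7836 (-0.80), Tat (tyrosine aminotransferase) at 21178 and 13404 (-0.66), and Pdk4, a kinase that holds back pyruvate oxidation, at 1818 and 630 (-1.53).

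Growth hormone acts on hepatocytes through JAK2 and STAT5, which induces the feedback inhibitors Socs2 and Cish and represses Bcl6, a transcriptional repressor. The STAT5 element TTCNNNGAA was searched on both strands in the same 250 bases and was found in 7.02% of promoters. It was in 3 of the 11 growth hormone response genes that had a promoter in the table, and Cish had no match in this window. A gene was counted for a match at any of its starts, whereas the percent is of single promoters, so they differ in unit. Bcl6 is shown because it had 3 matches (capitals), a number reached by 9 promoters (0.0274%). It is the window of 1 of its 2 RefSeq starts, chr16:23981284-23981533 (GRCm38.p6, minus strand).
Bcl6: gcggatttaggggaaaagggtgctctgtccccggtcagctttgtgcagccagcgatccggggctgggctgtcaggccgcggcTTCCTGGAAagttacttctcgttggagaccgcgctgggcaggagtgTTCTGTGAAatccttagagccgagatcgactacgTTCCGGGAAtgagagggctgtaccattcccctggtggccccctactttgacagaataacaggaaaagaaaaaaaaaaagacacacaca

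Socs2 stood at 1325 and 8473 in the Clock mutant, with 764 and 1785 for the wild-type pair and 1050 and 2532 for the Cry-deficient pair. All 3 genotypes had more at CT14, and the Clock mutant CT14 array was the highest of the 6. The log2 ratio was 2.68 (6.40-fold) in the Clock mutant and 1.22 in wild type. Bcl6 ran the other way, at 3537 and 700 in the Clock mutant, with 5521 and 4010 for the wild-type pair and 5737 and 1447 for the Cry-deficient pair. It was lower at CT14 in each genotype and lowest of all on the Clock mutant CT14 array, with a log2 ratio of -2.34 (5.06-fold). Cish was higher at CT14 (1874 and 4241, log2 ratio 1.18), as was Onecut1, a liver transcription factor of the HNF6 type (1003 and 2628, 1.39). Stat5b itself was lower (1401 and 682, -1.04), while Stat5a was at 2365 and 3141 (0.41, or -0.44 averaged over its probe sets). Igf1, the main endocrine product of growth hormone action, stood at 19240 and 11985 (-0.68), in the bright range where the median was below 0, and its sign turned after lowess correction or quantile normalization (0.11 in each). The receptor gene Ghr was at 20620 and 18513 by its brightest probe set (-0.16) but had a log2 ratio of 1.69 by its next, so its probe sets disagreed on the direction. Jak2 was at the floor on both arrays. Over the 12 genes kept the median was 0.18, with 6 higher, 5 lower, and 3 and 2 past 2-fold. Genes with male-biased and female-biased levels in liver, which follow the pattern of growth hormone pulses, had medians of -0.38 (15 kept) and -0.20 (12 kept), and the first was -0.04 after lowess correction.

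**Figure D2:**
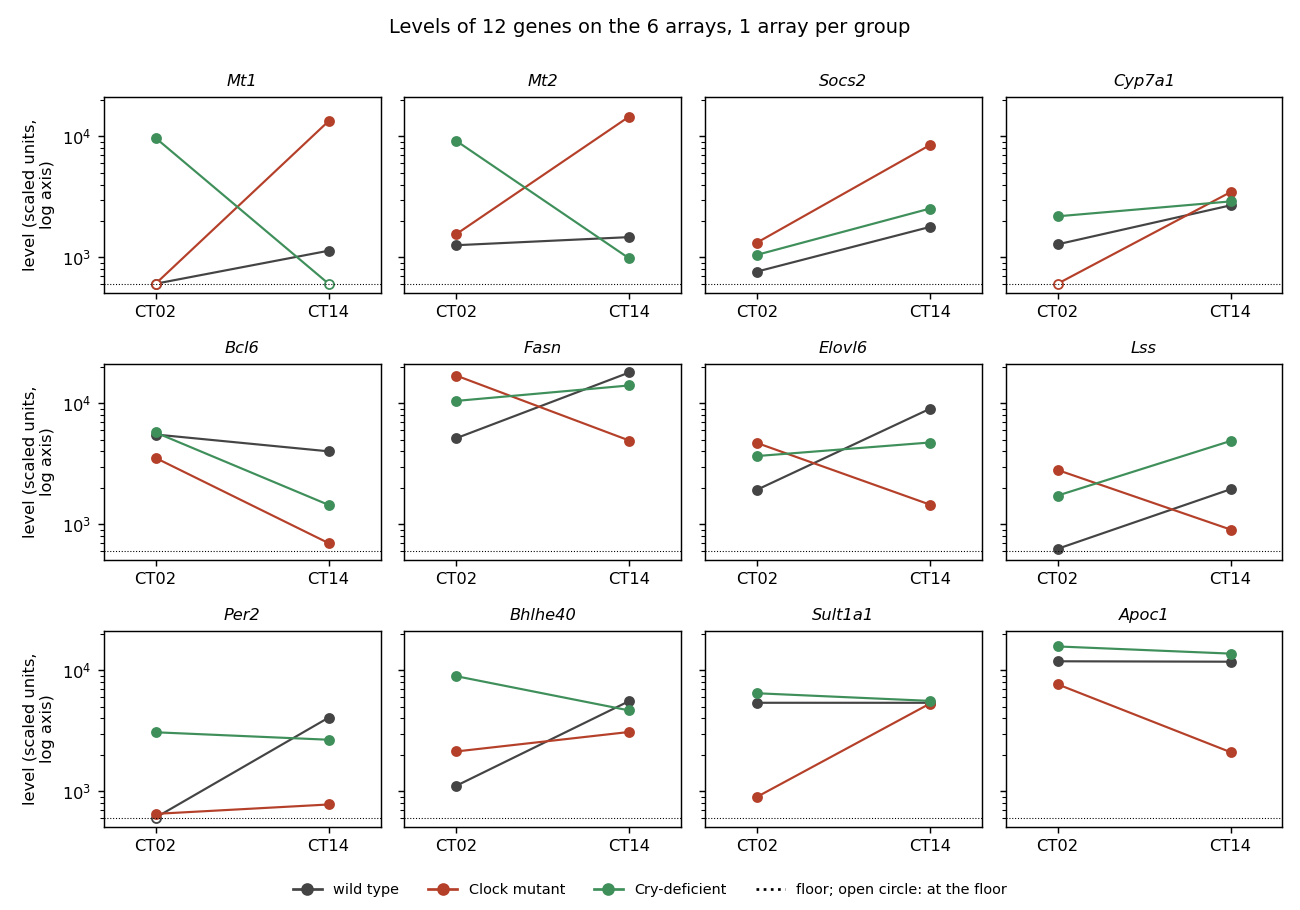
Levels of 12 genes on the 6 arrays (scaled units, log axis), CT02 joined to CT14 within each genotype, with 1 array per point and no error bar possible. Open circles are values at the floor (dotted line, 606 scaled units). Mt1, Mt2, Socs2 and Cyp7a1 are highest on the Clock mutant CT14 array, Fasn, Elovl6 and Lss run opposite ways in the Clock mutant and in wild type, and Per2 stays near the floor in the Clock mutant.

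Genes of fatty acid and cholesterol synthesis were mostly lower at CT14, where in wild type several were higher. These genes are activated by sterol regulatory element-binding proteins (SREBP), which act beside NF-Y at CCAAT boxes, and their promoters are shown with CCAAT, on either strand, in capitals. CCAAT occurred in 33.8% of promoters and in all 13 of the cholesterol synthesis genes that had a promoter in the table, and in 10 of 14 fatty acid synthesis genes. The form of the sterol regulatory element first known from the LDL receptor gene, TCACNCCAC, occurred in 1 of the 13 and in 1.05% of promoters. In both counts a gene with several starts needed a match at only 1 of them. The percents are of single promoters, so the gene counts and the percents are not directly comparable. The 200 bases before the start are printed for Fasn (chr11:120824548-120824747, minus strand, 3 matches), Lss (chr10:76531405-76531604, plus strand, 1 match), Mvd (chr8:122443423-122443622, minus strand, 2 matches) and 1 of 3 starts of Dhcr7 (chr7:143830014-143830213, plus strand, 2 matches), all GRCm38.p6 from RefSeq. A pair of overlapping matches on opposite strands forms the longer run of capitals in Fasn, and 917 promoters (2.79%) held 3 or more matches. The starts of Dhcr7 that are not printed had no match.
Fasn: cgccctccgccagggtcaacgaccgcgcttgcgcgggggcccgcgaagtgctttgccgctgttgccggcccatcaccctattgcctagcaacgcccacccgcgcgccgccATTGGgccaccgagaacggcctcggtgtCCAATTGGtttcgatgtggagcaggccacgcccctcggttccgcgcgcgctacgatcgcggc
Lss: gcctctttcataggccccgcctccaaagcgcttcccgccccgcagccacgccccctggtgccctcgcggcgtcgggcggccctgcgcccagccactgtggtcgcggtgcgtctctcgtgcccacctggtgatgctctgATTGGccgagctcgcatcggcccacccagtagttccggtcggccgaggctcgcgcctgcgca
Mvd: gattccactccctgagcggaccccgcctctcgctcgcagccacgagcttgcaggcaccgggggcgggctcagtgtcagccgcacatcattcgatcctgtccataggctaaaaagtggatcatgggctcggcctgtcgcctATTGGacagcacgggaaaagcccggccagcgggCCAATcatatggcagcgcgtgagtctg
Dhcr7: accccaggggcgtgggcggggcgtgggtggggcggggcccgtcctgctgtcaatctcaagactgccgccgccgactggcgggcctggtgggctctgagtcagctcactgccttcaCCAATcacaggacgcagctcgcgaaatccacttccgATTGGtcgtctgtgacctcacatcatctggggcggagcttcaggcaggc

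Fasn, the fatty acid synthase, stood at 16935 and 4924 in the Clock mutant, with 5148 and 17963 for the wild-type pair and 10460 and 14036 for the Cry-deficient pair. The Clock mutant pair thus covered nearly the range of the wild-type pair in the opposite order, with a log2 ratio of -1.78 (3.44-fold lower at CT14) against 1.80. Elovl6, which lengthens palmitate, stood at 4703 and 1456 in the Clock mutant (log2 ratio -1.69), where the wild-type pair read 1930 and 9005 (2.22). Pklr, the liver pyruvate kinase, had the same opposite order (-1.15 and 1.17), though it was under 2-fold when averaged over its probe sets (-0.50). Gpam, which starts glycerolipid synthesis, was at 19666 and 9183 (-1.10, or -0.90 after lowess correction, against -0.01 in wild type). Mid1ip1, a partner of acetyl-CoA carboxylase, was at 13082 and 6893 (-0.92), with its next probe set at -1.51 and the mean over its probe sets past 2-fold (-1.22). Acly, Scd1 and Srebf1 had log2 ratios of -0.65, -0.50 and -0.42. Lpin1, a phosphatidate phosphatase that also acts as a transcriptional coactivator, was the exception past 2-fold, at 1040 and 2620 (1.33), higher at CT14 as in wild type (2.73). Of the 18 genes kept 14 were lower and 4 higher, the median was -0.46 (-0.26 after lowess correction), 4 were past 2-fold downwards and 1 upwards, and the wild-type median was 0.14.

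In cholesterol synthesis 14 of 16 genes kept were lower at CT14, with a median of -0.62, against 0.07 for the wild-type and 1.46 for the Cry-deficient pair. The median after lowess correction was -0.63, but that of ratios averaged over all probe sets of a gene was nearer 0, at -0.34. Fdps, which makes farnesyl diphosphate, stood at 21981 and 6852 in the Clock mutant, with 7328 and 13427 for the wild-type pair and 11225 and 25308 for the Cry-deficient pair. Its log2 ratio was -1.68, and another of its probe sets read -1.28, while averaged with 2 further probe sets at the floor it was -0.74. Lss, the lanosterol synthase, stood at 2812 and 906 in the Clock mutant, with 628 and 1950 for the wild-type pair and 1728 and 4883 for the Cry-deficient pair (log2 ratio -1.63 in the Clock mutant). The Clock mutant pair was the only one of the 3 with the lower value at CT14, for Fdps as for Lss. Mvd, which makes isopentenyl diphosphate, was at least 3.09-fold lower at CT14, where it was at the floor, and Dhcr7, which catalyses the last step to cholesterol, stood at 2009 and 768 (-1.39). Cyp51, Sqle and Hmgcs1 had log2 ratios of -0.64, -0.63 and -0.61. Idi1 (-0.18) and Fdft1 (-0.02) differed little, and Hsd17b7 and Nsdhl were the 2 genes on the other side of 0 (0.44 and 0.26).

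Cyp7a1, whose product sets the rate at which bile acids are made, was at least 5.71-fold higher at CT14. It read 26 and 3461 in the Clock mutant, with 1282 and 2692 for the wild-type pair and 2185 and 2901 for the Cry-deficient pair, so that the Clock mutant pair held both the lowest and the highest of the 6 values. Nr0b2 (SHP), a repressor of Cyp7a1, stood at 5217 and 2148 (log2 ratio -1.28), with a wild-type log2 ratio of -2.53. Cyp8b1, which sets the share of cholic acid, was at 11972 and 8173 (-0.55). Over the 14 bile acid and sterol transport genes kept the median was -0.20 (-0.06 after lowess correction), with 4 higher and 10 lower. Among 18 apolipoprotein genes 15 were lower at CT14 (median -0.23, or -0.15 after lowess correction). Apoc1 stood at 7651 and 2105 in the Clock mutant and between 11755 and 15714 on the 4 other arrays, so that both Clock mutant arrays lay below the rest. Apoe stood at 884 and 234 against 2696 to 3977 elsewhere. Mttp, which loads lipid onto apolipoprotein B, was higher at CT14 (1141 and 2773, log2 ratio 1.28).

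Most clock genes were under 2-fold apart between the 2 Clock mutant arrays. Per2, a repressor of the CLOCK and BMAL1 pair, stood at 651 and 778 in the Clock mutant, with 251 and 4058 for the wild-type pair and 3072 and 2665 for the Cry-deficient pair. Both Clock mutant values were just above the floor, with a log2 ratio of 0.26. Bhlhe40 (DEC1) stood at 2133 and 3090 (0.53, against 2.32 in wild type), Tef at 2939 and 3552 (0.27, against 1.32), and Cry2 at 1372 and 1886 (0.46, against 0.89). Nr1d1 (REV-ERB alpha) was at 1877 and 1998, below its range of 3007 to 4101 on the 4 other arrays. Dbp and Usp2 were at the floor on both Clock mutant arrays, while Usp2 ranged from 733 to 5264 on the others. Per3 stood at 3769 and 3473 (-0.12). The 10 evening clock genes kept had a median of 0.17 in the Clock mutant and 0.73 in wild type. In the Clock mutant 2 of the 10 were at the floor on both arrays and entered the median as 0. Clock itself stood at 1640 and 2069 (0.34), a level that does not show whether an allele is mutant, and Arntl at 2060 and 1348 (-0.61). Cry1, with 1963 at CT02 and 366 at CT14, had a bound of at least 3.24-fold lower on a probe set that its name marks as shared with a sequence family, and a log2 ratio of -0.57 averaged over its probe sets. Nfil3, a repressor that competes with DBP and TEF, was at 2859 and 1257 (-1.19, or -0.93 averaged over its probe sets). The 4 morning clock genes kept had a median of -0.90 (-0.50 in wild type), and Cry1 was counted in both the evening and the morning list. The canonical E-box CACGTG was present within 250 bases of any start in 2 of 8 evening clock genes with a promoter in the table. It was in 6.02% of all promoters taken singly, which is a different unit.

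Insulin and mTOR signalling genes showed no common direction (median 0.08 over 22 kept, 13 higher and 9 lower), but 5 were past 2-fold upwards. Eif4b, a helper of the RNA helicase that opens messenger RNA for translation, stood at 761 and 6274, against 3536 to 5911 on the 4 other arrays. Its log2 ratio was 3.04 by its brightest probe set and 0.62 by another, and 0.91 averaged over its 4 probe sets, so they disagreed on the size. Akt2 and Akt1, the kinases downstream of the insulin receptor, were at the floor at CT02 and at least 4.17-fold and 2.59-fold higher at CT14. Ceacam1, which takes part in hepatic insulin clearance, stood at 1038 and 4363 (2.07), with a second probe set at 1.09. Inpp4a, an inositol phosphatase, was at 722 and 2694 (1.90). Igfbp1, which binds IGF1 and is repressed by insulin, was lower at CT14 (4284 and 1652, -1.37, or -0.69 averaged over its probe sets), as in wild type (-3.98). The 23 translation factor genes had a median of 0.10.

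Nuclear receptors and liver transcription factors were mostly higher at CT14. Of 26 kept, 21 were higher and 5 lower, with a median of 0.44 (0.47 after lowess correction, but 0.11 above that of all genes with no filter on dim genes) against -0.03 in wild type, while 3 were past 2-fold upwards and 3 downwards. Foxa2, a pioneer factor of liver genes, read -28 and 2137, at least 3.53-fold higher, with 76 to 2376 on the 4 other arrays. Cebpd was at 182 and 1602 (at least 2.64-fold), and Cebpb at 6542 and 12198 (log2 ratio 0.90). Rora, which opposes REV-ERB at shared sites, stood at 891 and 1348 (0.60). Hnf4a (0.51), Nr1i3 (CAR, 0.50), Ppara (0.37) and Rxrb (0.83) had smaller ratios in the same direction. Esr1 was at least 2.45-fold lower (1484 and 524) by its brightest probe set and at -0.32 averaged over 4. Cebpa, the brightest of the list at 28078 and 19814, had a log2 ratio of -0.50.

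Genes of conjugation included some of the largest ratios in both directions. Sult1a1, a phenol sulfotransferase, stood at 899 and 5298 in the Clock mutant and between 5381 and 6452 on the 4 other arrays, so that its log2 ratio of 2.56 came with a low value at CT02. Sult1b1 stood at 659 and 2339 against 292 to 1409 elsewhere (1.83), with the high value at CT14. Sult1d1 and Gstt2 were also past 2-fold (1.24 and 1.26). Gstm1, read by a probe set shared with its family, stood at 9374 and 2116 (-2.15), while its other probe set read -0.34. The 44 genes of the list had a median of -0.11, with 5 and 1 past 2-fold. Among 31 cytochrome P450 genes the median was -0.22 (-0.12 after lowess correction). Cyp4a14, a fatty acid hydroxylase under PPARA, stood at 3541 and 8437 (1.25, against -1.46 in wild type). Cyp3a16, on its only probe set, stood at 4262 at CT02 and under the floor (396) at CT14, a difference of at least 7.03-fold.

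**Figure D3:**
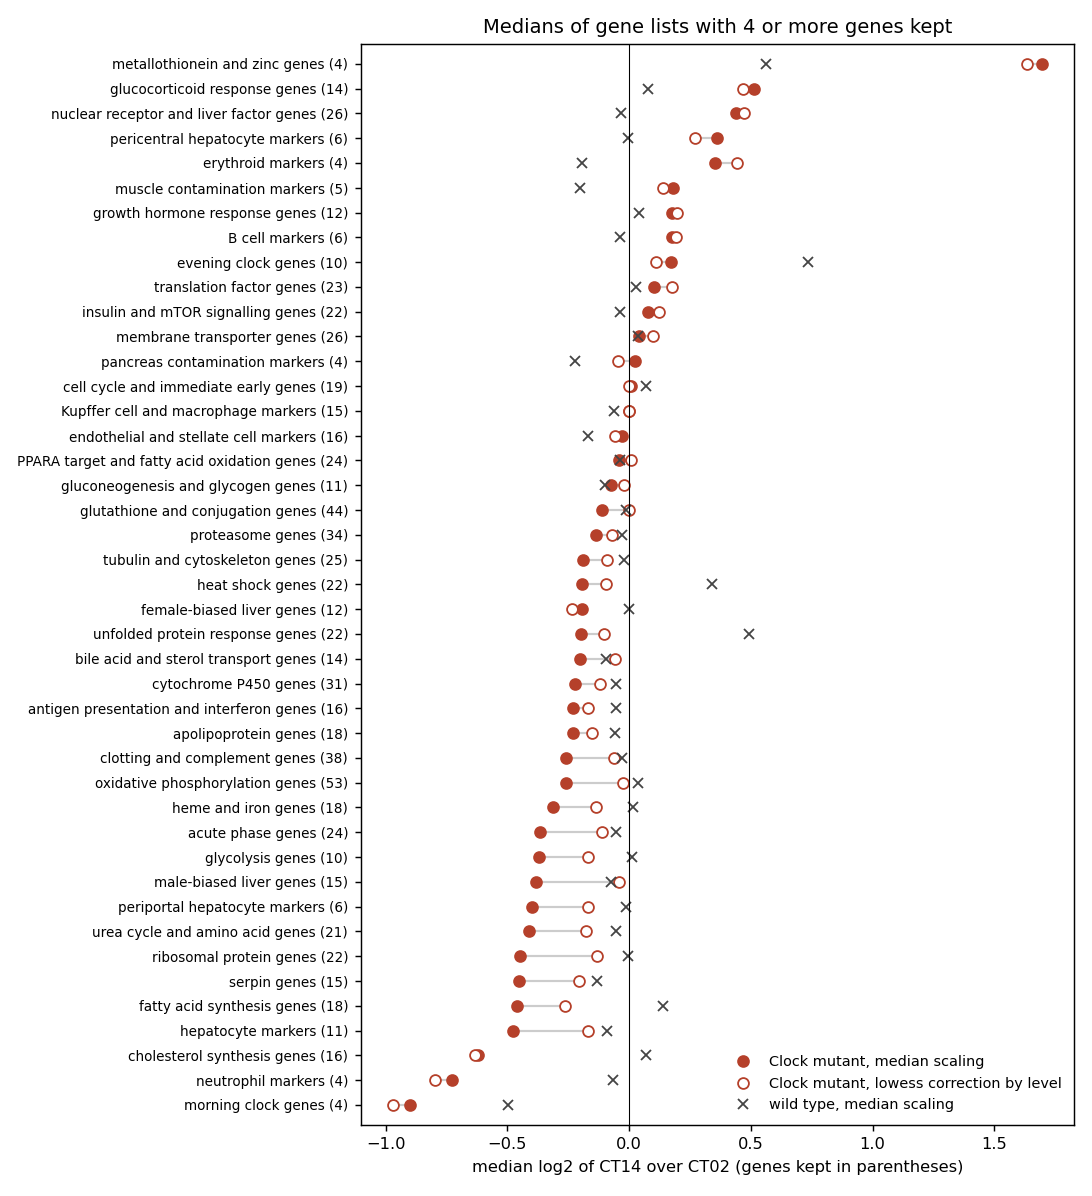
Medians of the log2 ratio of CT14 over CT02 for the 43 gene lists with 4 or more genes kept, numbers kept in parentheses. Filled circles are the Clock mutant after median scaling, open circles the same after a lowess correction by level, and crosses wild type. Cholesterol synthesis lies at -0.62 and -0.63 under these scalings (-0.34, not plotted, with the mean over all probe sets), whereas the ribosomal protein list moves from -0.45 to -0.13.

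Genes of secreted liver proteins were mostly lower at CT14. The acute phase, serpin, and clotting and complement lists had median levels of 11006, 10217 and 13405 scaled units. All kept genes in the brightest group, from 11690 scaled units up, had a median of -0.29, and those in the group below it -0.02. Haptoglobin (Hp) stood at 16457 and 5813 against 5527 to 10266 elsewhere (log2 ratio -1.50), and Saa3, an acute phase protein, at 1997 and 927 (-1.11, against 1.07 in wild type). The 24 acute phase genes had a median of -0.36, which was -0.11 after lowess correction. Serpina1e and Serpina1c, members of the alpha-1-antitrypsin family with near-identical sequences between which the signal cannot be divided, stood at 12212 and 2280 and at 8895 and 2340 (-2.42 and -1.93). A second probe set of Serpina1c read -2.71. The serpin list had a median of -0.45 over 15 genes. Mug-ps1, a pseudogene of the murinoglobulin family whose probe may read its coding relatives, had the largest ratio of the lower genes above the floor, at 7512 and 1236 (-2.60), against 4004 to 7106 on the other arrays. The 38 clotting and complement genes had a median of -0.26 (-0.06 after lowess correction).

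Unfolded protein response genes had a median of -0.20 in the Clock mutant (-0.10 after lowess correction), with 15 of 22 lower. In wild type their median was 0.49, with 21 of 22 higher. Manf and Creld2, secreted from the stressed endoplasmic reticulum, stood at 13945 and 5559 and at 5168 and 2218 in the Clock mutant (-1.33 and -1.22), against 0.94 and 2.16 in wild type. Heat shock genes had a median of -0.19 over 22 (-0.10 after lowess correction), against 0.34 in wild type, and none was past 2-fold. Asns, the asparagine synthetase induced by amino acid shortage, stood at 3207 at CT02 and under the floor (547) at CT14, a difference of at least 5.29-fold. The 21 urea cycle and amino acid genes had a median of -0.41, which was -0.18 after lowess correction.

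Beta-tubulin genes were lower at CT14 by probe sets that their names mark as shared within a family, so the genes behind the signal are uncertain. Tubb3 stood at 13626 and 2730, Tubb2a at 25099 and 6703, Tubb6 at 8943 and 3052, and Tubb5 at 15038 and 5915, with log2 ratios of -2.32, -1.90, -1.55 and -1.35. Averaged over their probe sets, Tubb2a (-0.95) and Tubb5 (-0.73) were under 2-fold. On the 4 other arrays Tubb3 lay between 3852 and 7939. The 25 tubulin and cytoskeleton genes had a median of -0.19, and of 0.03 when only probe sets without a family letter were used. Actg1 was higher (0.85). The direction of Actb depended on the probe set, with a log2 ratio of 0.88 by its brightest gene probe set, while its 3' control probe set was lower at CT14 (22102 and 15473) and its 5' control probe set higher (8239.8 and 13472).

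Among cell cycle and immediate early genes the median was 0.01 over 19 kept, and 3 were past 2-fold upwards. Phlda1, a gene induced by growth signals, stood at 2871 and 12713 (2.15), Gadd45g at 953 and 2238 (1.23), and Ccnd3 was at least 2.41-fold higher from the floor. Other genes with large ratios belonged to no list. Wsb1, a ubiquitin ligase adaptor, stood at 660 and 3833 in the Clock mutant (log2 ratio 2.54), where the wild-type pair read 1512 and 429 (-1.32). Gch1, which starts tetrahydrobiopterin synthesis, was at 2281 and 7173 (1.65), and Slc2a8, a glucose transporter, was at least 5.02-fold higher (150 and 3040). Itpk1, an inositol phosphate kinase, was at 5991 and 1018 against 3193 to 4237 elsewhere (-2.56), and Ido1, which degrades tryptophan, at 2624 and 711 (-1.88, or -0.94 averaged over its 2 probe sets).

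Other lists of housekeeping and metabolic genes had medians from -0.45 to 0.04. The 22 ribosomal protein genes had a median of -0.45 with 20 lower, the 53 oxidative phosphorylation genes one of -0.26 with 43 lower, and after lowess correction these were -0.13 and -0.03. Glycolysis (-0.37, 10 kept), heme and iron genes (-0.31, 18 kept), the proteasome (-0.14, 34 kept), gluconeogenesis and glycogen (-0.07, 11 kept), PPARA targets (-0.04, 24 kept) and membrane transporters (0.04, 26 kept) had medians of like or smaller size. Periportal hepatocyte markers had a median of -0.40 and pericentral markers one of 0.36, over 6 genes each, and after lowess correction these were -0.17 and 0.27. Glul, the glutamine synthetase of pericentral cells, stood at 4638 and 9100 (log2 ratio 0.97), below its range of 14992 to 21508 on the 4 other arrays, but its next probe set had a log2 ratio of -0.34.

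Markers of other cells were read in the same way. The 15 Kupffer cell and macrophage markers had a median of 0.00 and a summed level of 38632 and 40191 at CT02 and CT14, below the 48421 to 69374 of the 4 other arrays. The 4 neutrophil markers kept had a median of -0.73 and a summed level of 14192 and 8003, against 6873 to 8057 elsewhere, with Camp at 5409 and 2336. S100a8, S100a9 and Ngp were not kept. B cell markers (6 kept) had a median of 0.18, and Cd74 stood at 3528 and 3532 against 8738 to 13826 elsewhere. T and NK cell markers had 2 genes kept (median 0.12) and cholangiocyte markers 1, Cftr, at 1702 and 862. Endothelial and stellate markers (16 kept), pancreas markers (4 kept) and muscle markers (5 kept) had medians of -0.03, 0.02 and 0.18. Each of these lists had 1 gene past 2-fold upwards (2.01, 1.18 and 1.09) and none downwards. In the first and last list 1 gene was at the floor at CT02, so 2.01 and 1.09 may be lower bounds. The 4 erythroid markers were all higher (0.35, summed level 36950 and 46976). Antigen presentation and interferon genes had a median of -0.23, with 14 of 16 lower. The part of these cells in the gene differences was not tested.

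A ratio between the 2 arrays can come from either of them, and the 4 other arrays, with values under the floor set to it, show which stood apart. Because the higher and lower genes were picked by the ratio of these same 2 arrays, a share above that of all kept genes follows from the picking. Of the 209 genes higher at CT14, the CT02 array was below all 4 others in 145 (69.4%) and the CT14 array was above all 4 in 90 (43.1%), against 29.7% and 28.0% of all kept genes. For 66 genes, Akt2 and Ceacam1 among them, the CT02 array alone stood apart, and for 40, Mt1, Mt2 and Socs2 among them, the CT14 array alone did. For 47, Cyp7a1 and Eif4b among them, both did, in opposite directions. Of the 166 lower genes, the CT02 array was above all others in 106 (63.9%) and the CT14 array was below all others in 92 (55.4%), against 32.0% and 27.8% of all kept genes. The CT02 array alone stood apart in 57, including Cyp3a16 and Hp, the CT14 array alone in 40, including Bcl6, Fasn and Fdps, and both in 43, including Mug-ps1, Itpk1 and Asns. For Sult1a1 and Apoc1 both arrays lay below the rest.

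**Figure D4:**
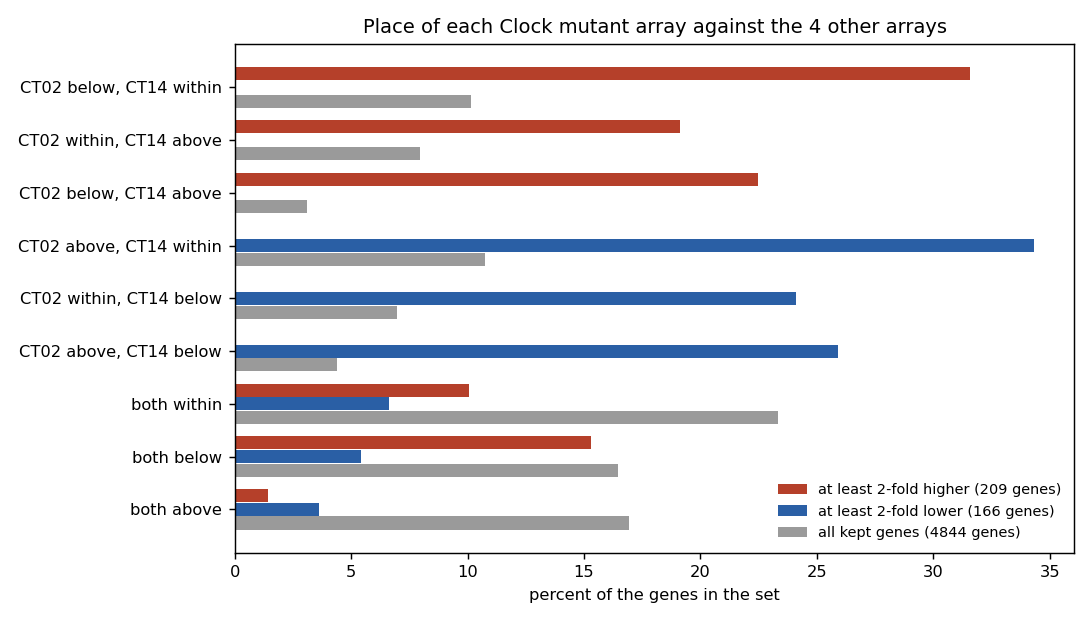
Bars give the percent of the 209 higher genes (red), the 166 lower genes (blue) and all 4844 kept genes (grey) by the place of each Clock mutant array against the range of the 4 other arrays. The CT02 array alone stood apart in 31.6% of the higher and 34.3% of the lower genes, the CT14 array alone in 19.1% and 24.1%.

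Genes with more than 1 probe set gave a check within these arrays. In 558 genes at least 2 probe sets were above the floor on both arrays, and in 71 of them at least 1 was past 2-fold. All of these probe sets were past 2-fold the same way in 4 of the 71, all had the same sign in 43, these 4 included, and signs differed in 28. The 4 genes were Ceacam1 (2.07 and 1.09), Mknk2 (1.07 and 1.36), Fdps (-1.68 and -1.28) and Serpina1c (-1.93 and -2.71). In wild type, of 45 such genes 7 were past 2-fold by every probe set and signs differed in 15. Among probe sets without a family letter, 24 genes had at least 1 past 2-fold in the Clock mutant. In 1 of these 24 every probe set was past it the same way, and signs differed in 8. The leading genes Mt1, Mt2, Socs2, Bcl6, Fasn, Lss and Cyp7a1 each had 1 probe set with a single gene symbol, so no second reading of them was at hand.

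**Figure D5:**
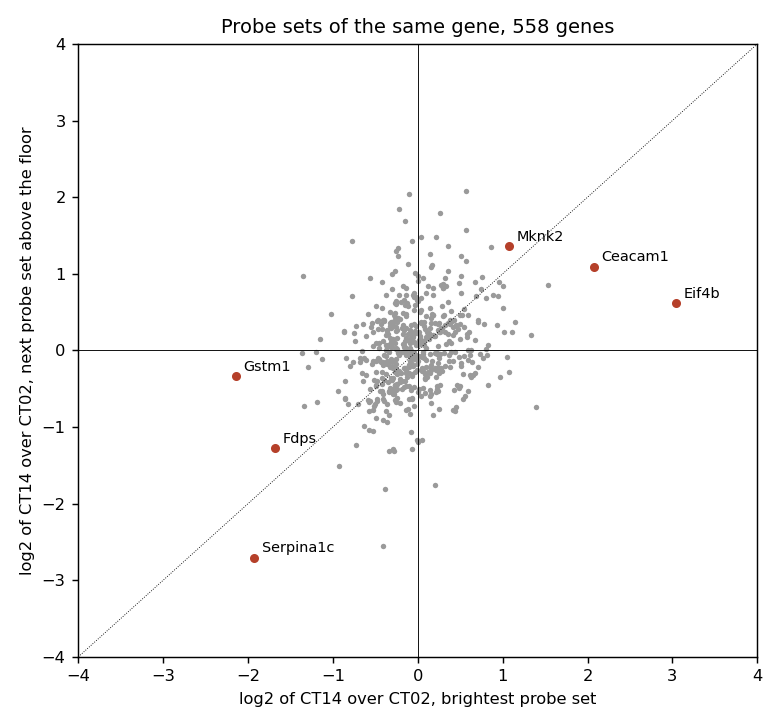
For the 558 genes with at least 2 probe sets above the floor on both Clock mutant arrays, the log2 ratio of CT14 over CT02 by the brightest probe set (x axis) and by the next (y axis), with the line of equality dotted. Fdps, Serpina1c, Ceacam1 and Mknk2 lie past 2-fold on both axes, while Eif4b (3.04 and 0.62) and Gstm1 (-2.15 and -0.34) do so on 1.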

How the data were processed

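Liver RNA was hybridised to 6 one-colour arrays of 12488 probe sets, 66 of them controls. Intensities deposited by the authors, 1 for each probe set on each array, are on a linear scale that includes negative values. The software and any background subtraction were not stated in the labels.

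The median ratio of an array to the geometric mean of all 6, over 6065 probe sets, was divided out. Values under the pooled median (606 scaled units) were replaced by it, as a floor, and log2 was then taken. Probe sets with 1 gene symbol in the platform annotation (10855) were kept, 396 with several and 1237 with none were not, and 10839 matched a RefSeq table of GRCm38.p6 by gene number. Each gene was read by its brightest probe set, and the 4844 genes with a mean at or above the floor were kept. A gene was called past a 2-fold ratio of CT14 over CT02. No test was possible with 1 array per group, and it is the number of arrays that limits precision. Motifs were searched on both strands of 250 bases before each RefSeq start. Counts of genes in a list take a match at any start of a gene, and percents are of single promoters.

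The text names the clock genes, the 4 marker genes, genes among the 30 largest measured ratios each way, among the 10 largest lower bounds each way, among up to 8 members of each of 45 gene lists with the largest ratios, and genes past 2-fold on every one of 2 or more probe sets. Members named outside this rule were picked with their values in view. The members and lists were chosen with earlier results of these data known. Alternatives were 8 planned settings and 3 added after seeing the data. The procedure was tested on simulated data. Python 3.11.15, numpy 2.4.6, pandas 2.3.3 and statsmodels 0.14.6 were used.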

Additional observations from a re-analysis of the deposited data

Results flagged for a closer look

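In 14 named genes past 2-fold in the Clock mutant the wild-type pair was past 2-fold the other way. Each difference below is the Clock mutant log2 ratio of CT14 over CT02 less that of wild type, and with 1 array per group none was tested. It was -3.59 for Fasn, -3.91 for Elovl6, -2.32 for Pklr, -3.27 for Lss and -2.94 for Mvd, genes of lipid and sterol synthesis. It was -4.55 for Cyp3a16, -3.39 for Abcc5, -3.38 for Creld2 and -2.18 for Saa3. It was positive in the other 5 genes, at 3.86 for Wsb1, 3.10 for Fbxo21, 3.09 for Ceacam1, 2.71 for Cyp4a14 and 2.17 for Mgst3. For Mvd, Cyp3a16, Abcc5, Wsb1 and Saa3 at least 1 of the arrays was at the floor, so the size of the difference is a lower bound. Mgst3 was under 2-fold in the Clock mutant with quantile normalization (0.96), lowess correction (0.94) and the mean over probe sets (0.50), and Pklr with that mean (-0.50).

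The 3' control probe set of 18S ribosomal RNA, which belongs to no comparison, stood at 15214 and 15787 scaled units on the Clock mutant arrays at CT02 and CT14, against 2373 and 2690 in wild type. The other 18S probe sets differed between the Clock mutant arrays, at 5960 and 17721 (5') and at 3394 and 15219 (middle).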

How the results depend on the processing

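The count past 2-fold depended most on scaling and floor. With the values as deposited 662 genes were higher and 49 lower (711 in all, 93.1% higher), with a median over all genes of 0.45. A floor at the 25th percentile gave 757 and 637 (1394), and a 3-fold threshold 43 and 37 (80). Only 130 higher genes were above the floor on both arrays. The share of higher genes among those called was 55.7% after median scaling, 49.1% after quantile normalization and 51.5% after lowess correction. List medians, less the median over all genes, moved as follows. With quantile normalization they were -0.19 for hepatocyte markers, -0.047 for acute phase, -0.18 for serpins, -0.048 for male-biased genes, -0.14 for ribosomal proteins and 0.013 for conjugation (sign turned). With lowess correction they were -0.17, -0.11, -0.039 and -0.13 for hepatocyte, acute phase, male-biased and ribosomal lists. With no filter on dim genes they were -0.61 for the morning clock, 0.16 for metallothioneins, 0.00 for glucocorticoid genes, -0.26 for neutrophils and 0.11 for nuclear receptors. With the mean over probe sets the morning clock was -0.59 and cholesterol synthesis -0.34. With the lower floor glucocorticoid genes were 0.13, and translation factors (-0.034) and B cell markers (-0.00012) turned sign. Using probe sets with no family letter, the morning clock was -0.62, and conjugation (0.0043), tubulin (0.022), B cell markers (-0.0044) and Entpd6 (-1.01) turned sign. As deposited, growth hormone genes (-0.0018) turned sign. The cause of each was not tested. The other 319 list medians moved by 0.25 or less, and 12 of them, with main medians under 0.1 in size, turned sign. Of the named-gene ratios 2547 stayed on their side of 2-fold, 51 fell under it, 58 rose past it and 1, that of Entpd6, reversed. With the values as deposited 19 fell under it, Dhcr7 (-0.89), Manf (-0.83), Nr0b2 (-0.78), Creld2 (-0.72), Saa3 (-0.61) and Stat5b (-0.54) among them, and 40 rose past it. Of the 2547, 77, all under 2-fold, turned sign. These were 54 with the values as deposited and 7 each with quantile normalization and lowess correction, Igf1 among them in both. No paired analysis was possible because each group has 1 array and the labels give no replicate numbers to match. Signal over background limits every dim gene: 8.05% of kept genes were at the floor at CT02 and 5.78% at CT14.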
